A study of Arabidopsis thaliana with 15 samples.

Results

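A set of 104 genes, of 33602 in the count table (0.31%), was selected on measured values: their reads were more frequent after UV-B in uvr8-6 and not in the wild type. The values that chose them are group means of 3 libraries in CPM (a gene's share of the reads of its library, scaled to a common total), each with 0.5 CPM added. A gene entered when its mean in uvr8-6 under UV-B was 1.5 or more times that in uvr8-6 in white light, its ratio in the wild type was 1.1 or less, and its mean in uvr8-6 under UV-B reached 3 CPM. All values in these 4 groups therefore belong to the choice of the genes and are given as a description. Of the 104 genes, 96 are nuclear protein-coding genes, 7 are plastid loci that the name table does not hold, and 1 (AT2G01020) is a ribosomal RNA gene. All 104 passed the filter on low counts.

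RNA came from whole Arabidopsis thaliana seedlings in the Col-0 background, 4 days old and grown on sucrose medium in continuous weak white light. Seedlings of uvr8-6, a mutant of the UV-B photoreceptor UVR8, and of the wild type either received 6 h of supplementary narrowband UV-B or stayed in white light behind a filter that removes UV-B, and pif4-101 pif5-1, a double mutant of the bHLH factors PIF4 and PIF5, which promote elongation,, was sampled in white light alone. Each of the 5 groups had 3 libraries from separate plates, each library pooled 30 seedlings, and 1 allele stands for the loss of UVR8. In whole seedlings a change in the amount of a tissue and a change in RNA per cell cannot be told apart.

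UVR8 is the receptor through which plants perceive UV-B as a signal. On absorbing UV-B it binds COP1 and so raises the transcription factor HY5, which switches on sunscreen pigments and repair enzymes. UV-B also reaches DNA, membranes and proteins directly, and plants answer such stress with cytochrome P450s, glutathione transferases, DNA repair genes and defence genes that do not need the receptor.

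The libraries held 19.3 to 30.4 M reads. UVR8 transcripts stood at 14.8 to 20.7 CPM in the 6 uvr8-6 libraries, against 73.9 to 109 CPM in the other 9, and PIF5 transcripts at 4.49 to 5.30 CPM in pif4-101 pif5-1, against 68.9 to 141 CPM elsewhere. PIF4 transcripts did not set pif4-101 pif5-1 apart, at 78.0 to 97.0 CPM, against 34.7 to 174 CPM elsewhere. Photosynthetic shoot markers and root markers were both present in every library, as whole seedlings call for. Some libraries stood apart from others of their own group. FRO5, a metal reductase gene, exceeded 10 CPM in 5 libraries, namely uvr8-6 UV-B replicates 1 and 3 (28.6 and 32.2 CPM), uvr8-6 white-light replicate 2 (84.4 CPM), wild-type UV-B replicate 1 (18.9 CPM) and wild-type white-light replicate 2 (61.8 CPM), and stayed at or below 1.18 CPM in the other 10. Wild-type white-light replicate 1 had 0.208% plastid and 0.446% mitochondrial reads, against at most 0.051% and 0.131% in any other library.

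The 4 genes below had the lowest edgeR adjusted p-values of the set in uvr8-6, and their promoters are shown for the short motifs they carry. CYP81D11 encodes a cytochrome P450, AT2G37870 a small protein of the lipid-transfer family, LOG5 a cytokinin-activating enzyme and GRP3S a glycine-rich protein. Each line is the DNA before the annotated gene start, 5′ to 3′ on the coding strand, from the RefSeq assembly TAIR10.1. Capitals mark ACGTG, the core of the G-box read by bZIP and bHLH factors, and TGACG, the site read by TGA-type bZIP factors, on either strand.
CYP81D11: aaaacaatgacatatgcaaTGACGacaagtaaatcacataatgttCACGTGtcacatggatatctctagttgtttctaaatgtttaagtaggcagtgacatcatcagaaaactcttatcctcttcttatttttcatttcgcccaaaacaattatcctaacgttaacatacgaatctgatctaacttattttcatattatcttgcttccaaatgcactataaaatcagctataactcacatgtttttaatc
AT2G37870: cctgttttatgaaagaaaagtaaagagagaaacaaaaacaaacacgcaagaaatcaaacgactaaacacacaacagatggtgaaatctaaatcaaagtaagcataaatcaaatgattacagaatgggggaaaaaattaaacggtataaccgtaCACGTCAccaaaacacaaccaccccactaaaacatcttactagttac
LOG5: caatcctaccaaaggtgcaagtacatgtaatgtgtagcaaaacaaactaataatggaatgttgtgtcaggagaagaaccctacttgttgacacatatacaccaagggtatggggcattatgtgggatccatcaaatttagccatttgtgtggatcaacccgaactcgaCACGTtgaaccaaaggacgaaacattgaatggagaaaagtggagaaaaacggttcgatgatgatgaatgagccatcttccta
GRP3S: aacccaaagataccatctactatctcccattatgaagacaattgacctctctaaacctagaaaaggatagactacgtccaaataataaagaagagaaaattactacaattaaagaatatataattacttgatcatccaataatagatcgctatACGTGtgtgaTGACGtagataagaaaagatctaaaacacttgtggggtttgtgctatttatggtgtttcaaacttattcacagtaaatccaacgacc
They lie at chr3:10790554-10790803 (minus strand), chr2:15859004-15859203, chr4:16745939-16746188 and chr2:1966360-1966609 (plus strand for the last 3), all just before the gene start and outside annotated genes. The run for AT2G37870 is 200 bases because a neighbouring gene ends farther upstream, and the others are 250 bases. CYP81D11 carried TGACG and a whole G-box, in which both strands read ACGTG. In AT2G37870 the motifs share bases of 1 run, in GRP3S they lie 10 bases apart from start to start, and LOG5 carried ACGTG alone. Over the 250 bases before the gene start, 35 of the 96 nuclear protein-coding genes of the set held ACGTG on either strand (36.5%), against 24.1% of 20150 tested nuclear genes. TGACG was found in 25% of the set and 19.2% of all. The whole G-box CACGTG was found in 7.3% of the set and 7.4% of all, and the W-box letters TTGACT in 22.9% and 18.9%. ACGTG lies inside CACGTG, and a match is a description of letters, not of binding.

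Most of the set had a uvr8-6 ratio under 2. Of 406 genes that met both the ratio of 1.5 and the 3 CPM in uvr8-6, 221 also had a ratio of 1.5 or more in the wild type, and the 104 are those with a wild-type ratio of 1.1 or less. Within the set 42 genes had a uvr8-6 ratio under 1.6 and 19 had 2 or more. A wild-type ratio of 1 or less was found for 79, and 18 had a level 1.5 or more times lower under UV-B. Neither count has its share over all genes beside it, and in CPM the wild-type ratio lay below 1 for the median gene too. Within libraries of high and low FRO5 its median was 0.875 and 0.914 over all tested genes, against 0.874 and 0.861 in the set. The plot of both ratios shows the set as the upper left edge of a cloud in which larger ratios in uvr8-6 go mostly with larger ratios in the wild type.

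**Figure D1:**
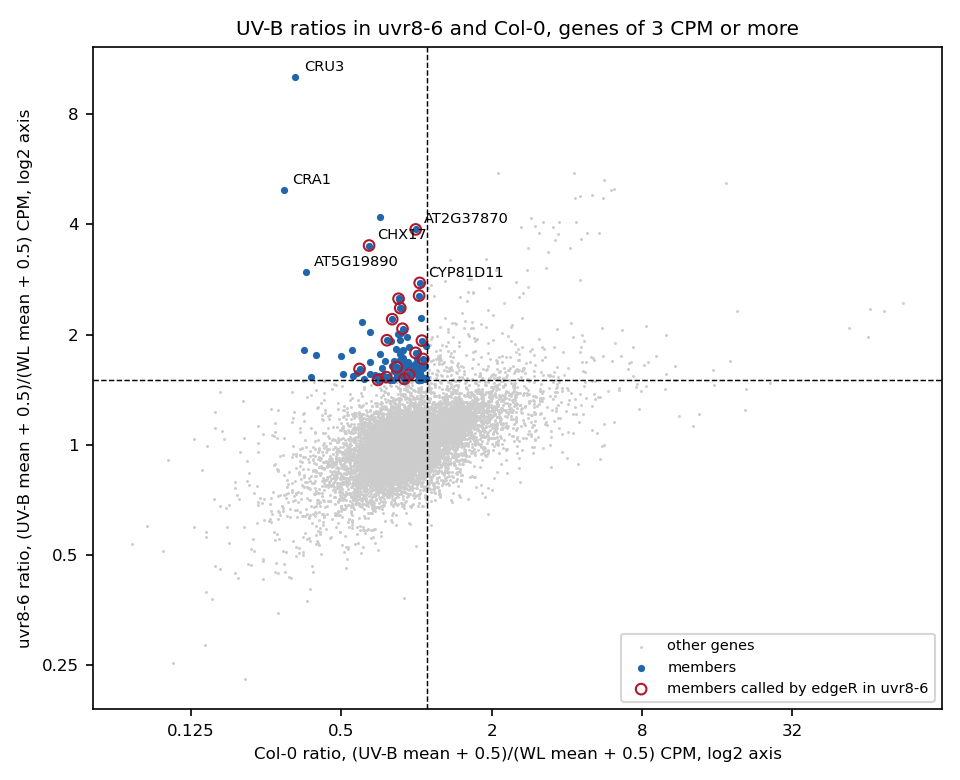
UV-B ratio in uvr8-6 (vertical) against that in Col-0 (horizontal), both on log2 axes, for genes of 3 CPM or more in uvr8-6 under UV-B; dashed lines mark the ratios of 1.5 and 1.1. The 104 members (blue) fill the upper left corner, many of them close to the horizontal line, and the 18 ringed in red were called by edgeR in uvr8-6.

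Genes just inside the ratio of 1.5 were the ABC transporter gene ABCB15 at 1.502, the chitinase gene CHIA at 1.503 and AT5G52810, an NAD(P)-binding protein gene, at 1.504, and just outside were ABS2 at 1.497, the plastid locus ATCG00730 at 1.495 and GH9B15, a glycosyl hydrolase gene, at 1.495. At the wild-type limit, CHI (AT2G43570, a chitinase), CYP81D8 and AT4G04990 were inside at 1.097, 1.089 and 1.086, and EDF3, UGT74E2 and Rap2.6L were outside at 1.113, 1.114 and 1.116. At the 3 CPM limit, LRP1, AT2G22880 and ATCG00170 were inside at 3.04, 3.06 and 3.11 CPM, and AT4G19130, MYB14 and DELTA-VPE outside at 2.97, 2.95 and 2.83 CPM.

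The edgeR quasi-likelihood test was fitted to 20833 genes, and a gene was called at a Benjamini-Hochberg adjusted p under 0.05. In uvr8-6 it called 18 of the 104 as higher under UV-B (17.3%), against 0.85% of all genes tested, and 77 had an unadjusted p under 0.05. The rule chose genes on this contrast, so nothing is read from that share. The count was 5 without uvr8-6 white-light replicate 1 and 6 without uvr8-6 white-light replicate 3. A larger UV-B response in uvr8-6 than in the wild type, which is the test of the difference itself, was called for 17 (16.3%), against 1.72% of all genes, and a smaller one for 0, against 4.88%. Both were called for 13 and neither for 82. Between uvr8-6 and the wild type under UV-B, 55 were called higher in uvr8-6, against 9.18% of all genes. The median log2 fold change of the set was 0.77 in uvr8-6 and -0.08 in the wild type, with -0.01 over all genes in both.

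Without any model, all 3 uvr8-6 UV-B libraries lay above all 3 uvr8-6 white-light libraries in CPM for 72 of the 104, against 9.45% of all genes tested. For 54 they lay above every one of the other 12 libraries, against 1.93% of all genes. The highest of the 5 group means was that of uvr8-6 under UV-B for 99 genes, that of the wild type in white light for 3 and that of pif4-101 pif5-1 for 2. The rule itself leans to this outcome, and the share over all genes was not counted. A negative log2 fold change under UV-B in the wild type was found for 61 of the 104, and the median over all genes was itself negative, at -0.01. None was called higher there by edgeR, with 0 at an unadjusted p under 0.05 and 16.1% of all genes called.

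Called lower under UV-B in the wild type were 3, against 11.3% of all genes. They are AT5G19890, a peroxidase gene, at -1.45 ± 0.45 (log2 ± SE), MLP165, a gene of the major latex protein family, at -0.64 ± 0.15, and PGDH, a serine synthesis gene, at -0.63. That count was 7 without wild-type UV-B replicate 1, 1 without wild-type UV-B replicate 3, 5 without wild-type white-light replicate 3 and 5 without uvr8-6 white-light replicate 2.

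Genes of oxidation, conjugation and detoxification formed 1 group of the set, put together after the values were seen. CYP81D11 had 47.5, 72.9 and 56.4 CPM in uvr8-6 under UV-B, against 20.7, 21.6 and 20.6 CPM in uvr8-6 in white light. In the wild type it had 17.5, 18.4 and 20.9 CPM under UV-B, against 16.2, 18.6 and 20.3 CPM in white light. The 3 uvr8-6 UV-B libraries stood alone, and the other 12 lay between 14.4 and 21.6 CPM. The log2 fold change was 1.48 ± 0.15 in uvr8-6 and 0.21 ± 0.15 in the wild type. CYP81D11 overlaps HMG on the opposite strand, and how strand was treated in counting is not given in the sources used here.

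GSTU25, a glutathione transferase of the tau class, which joins glutathione to reactive compounds, had 7.57, 14.7 and 8.59 CPM in uvr8-6 under UV-B, against 3.88, 3.95 and 3.31 CPM in uvr8-6 in white light. No other library reached the lowest of these UV-B values, the nearest being pif4-101 pif5-1 replicate 1 at 5.81 CPM. GSTF7, of the phi class, had 37.8, 46.9 and 37.3 CPM in uvr8-6 under UV-B, against 19.1, 21.8 and 18.201 CPM in uvr8-6 in white light. In the wild type it had 17.8, 6.34 and 6.62 CPM under UV-B, against 14.2, 18.3 and 15.5 CPM in white light, so that the wild-type groups overlapped through UV-B replicate 1. CYP81D8, a relative of CYP81D11, was at 3.55, 6.34 and 4.36 CPM in uvr8-6 under UV-B, against 2.41, 2.23 and 2.31 CPM in uvr8-6 in white light. Of GSTU25, GSTF7 and CYP81D8, edgeR called GSTU25 alone in uvr8-6. Among family members such as GSTF7 and GSTF6, which are alike in sequence, the authors' counting can split or drop shared reads, and the same holds for GSTF2.

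The neighbouring NAD(P)-linked oxidoreductase genes AT1G60730 and AT1G60750 belong to the same group. AT1G60730 averaged 33.0 ± 11.9 CPM in uvr8-6 under UV-B, against 16.9 ± 1.35 CPM in uvr8-6 in white light (SD, n = 3 each), and was called in uvr8-6. AT1G60750 averaged 4.71 ± 2.84 CPM under UV-B, against 1.70 ± 0.248 CPM in white light, and was not. AT4G19880, a further glutathione transferase family gene, and NIT2, a nitrilase gene, had ratios of 1.62 and 2.02 and were not called in uvr8-6 either.

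Of a list of 32 detoxification genes, drawn up with earlier results of these data known, 26 were tested and 4 are in the set (CYP81D11, CYP81D8, GSTU25 and GSTF7). In uvr8-6 15 of the 26 rose and none fell, and in the wild type 10 rose and none fell. Over all genes tested, 0.85% were called higher in uvr8-6 and 16.1% in the wild type. The list's median log2 fold change was 1.03 in uvr8-6 and 0.46 in the wild type, with -0.01 over all genes in both. GSTU7 rose to 68.4 CPM in uvr8-6 under UV-B, against 27.4 CPM in white light, and to 39.8 CPM in the wild type under UV-B, against 24.8 CPM in white light (means of 3). GSTU24 stood at 40.1 CPM under UV-B and 14.0 CPM in white light in uvr8-6 and was called there, and at 15.6 and 11.9 CPM in the wild type, where it was not. The difference between the responses was called as larger in uvr8-6 for 2 of the 26, CYP81D11 and GSTF7, and as smaller for 1, GSTU4. UGT74E2, a glucosyltransferase gene, was called in uvr8-6 at 1.66 ± 0.31 (log2 ± SE) and missed the set only by its wild-type ratio of 1.114.

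**Figure D2:**
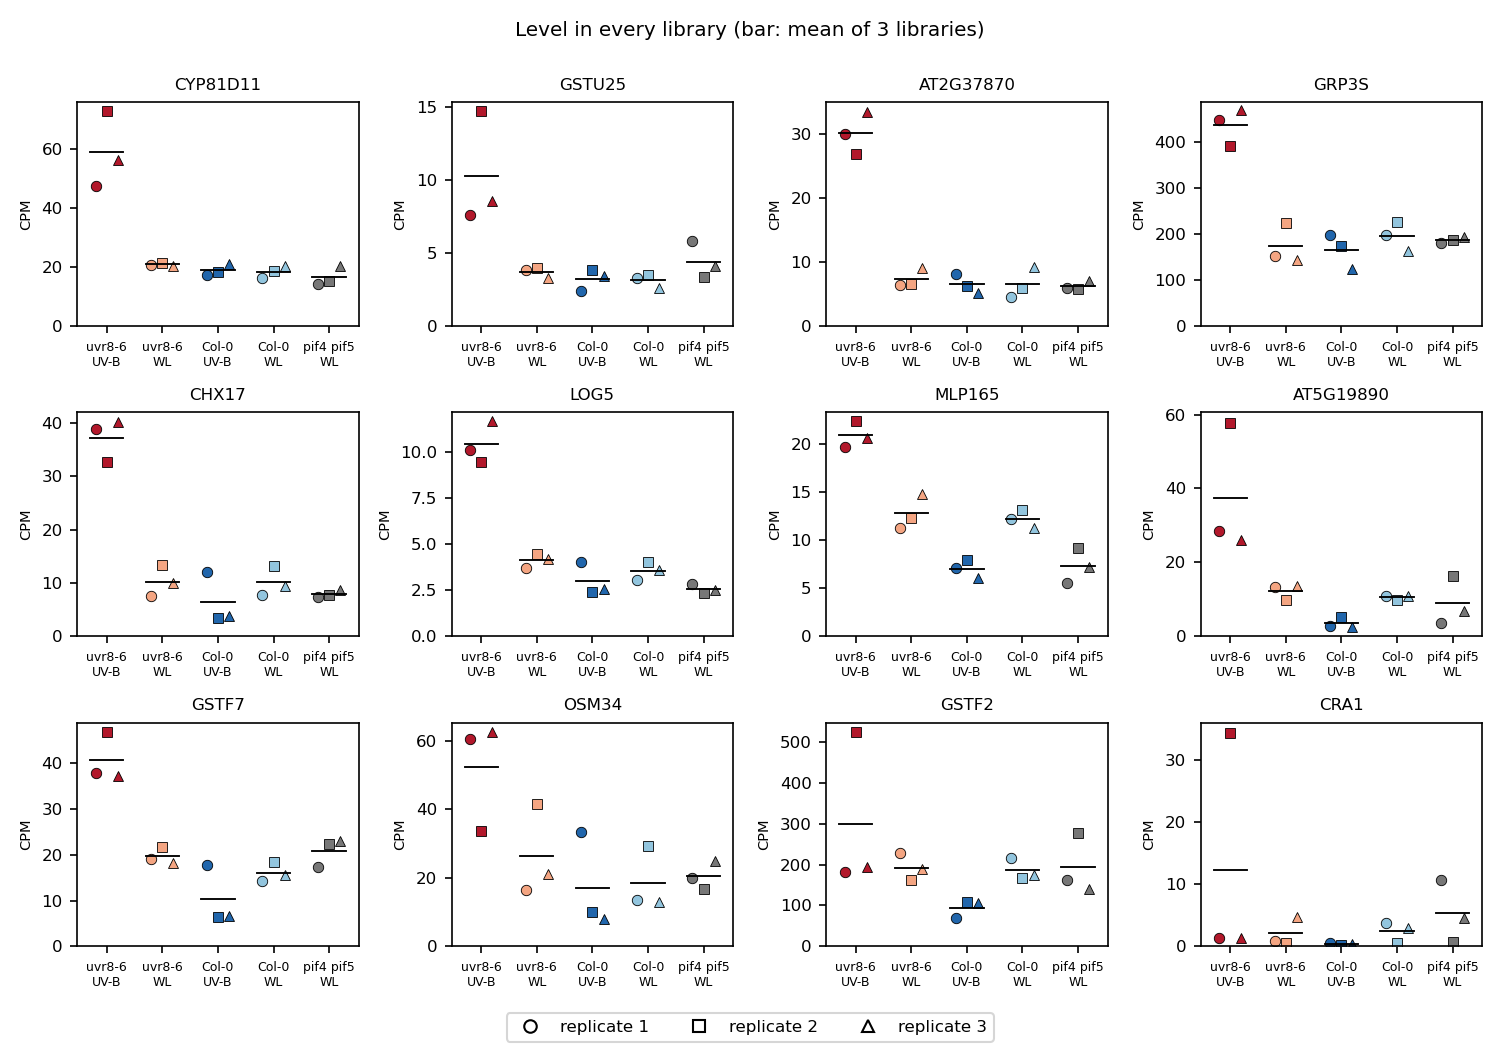
CPM of 12 members (vertical, from 0, a separate scale for each) in each of the 15 libraries; symbols give the replicate number, colours the 5 groups and bars the mean of 3. For CYP81D11, GSTU25, AT2G37870, GRP3S, CHX17, LOG5, MLP165, AT5G19890 and GSTF7 the 3 uvr8-6 UV-B libraries lie above the other 12, whereas OSM34 overlaps uvr8-6 in white light and 1 library sets the mean of GSTF2 and CRA1.

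DNA repair genes of the set included PARP2, a poly(ADP-ribose) polymerase, and XRI1, a gene first known for its induction by X-rays. PARP2 stood at 12, 12.1 and 14.5 CPM under UV-B, against 6.04, 10.6 and 8.30 CPM in white light in uvr8-6, and XRI1 at 12.4, 11.6 and 12.3 CPM, against 5.86, 8.55 and 9.14 CPM. For PARP2 and XRI1 the uvr8-6 groups did not overlap, but neither was called in uvr8-6.

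Of 18 tested genes in a list of the DNA damage response, 3 rose in uvr8-6, among them BRCA1 and TSO2, a ribonucleotide reductase subunit gene, and 2 rose in the wild type. The shares of all genes called higher were 0.85% in uvr8-6 and 16.1% in the wild type. BRCA1, a repair gene outside the set, averaged 15.2 CPM in uvr8-6 under UV-B, against 5.05 CPM in white light, and 6.93 CPM in the wild type under UV-B, against 4.10 CPM in white light. No member of that list was called for the difference between the responses. The list's median log2 fold change was 0.53 in uvr8-6 and 0.18 in the wild type.

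Cell wall and surface proteins held several of the largest ratios. AT2G37870 had 29.9, 26.8 and 33.4 CPM in uvr8-6 under UV-B, against 6.38, 6.6 and 9.14 CPM in uvr8-6 in white light. None of the other 12 libraries exceeded 9.18 CPM. Its log2 fold change was 2.03 ± 0.21 in uvr8-6 and 0.14 ± 0.22 in the wild type. Of the other lipid-transfer family genes, AT4G33550 had ratios of 2.22 and 1.04 in uvr8-6 and the wild type, and AT3G53980 1.64 and 0.80, and neither was called in uvr8-6. GRP3S was at 448, 392 and 468 CPM in uvr8-6 under UV-B, against 153, 224 and 145 CPM in uvr8-6 in white light. Per kilobase of exon it was the most abundant gene of the set, at 477 CPM per kb in uvr8-6 under UV-B, against 190 in uvr8-6 in white light.

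Class III peroxidases, secreted enzymes that make or use hydrogen peroxide in the wall, were represented by 4 genes. Product names with the word peroxidase made up 4.17% of the 96 nuclear genes and 0.43% of those tested, a match of words that does not separate peroxidase classes. AT1G49570 had 82.6, 94.5 and 99.3 CPM in uvr8-6 under UV-B, against 12.4, 44.0 and 8.51 CPM in uvr8-6 in white light. The value of 44.0 CPM belonged to a library of high FRO5. Its uvr8-6 groups did not overlap, yet edgeR did not call it in uvr8-6, and in the wild type the library of highest level in white light was likewise that of high FRO5, at 28.3 CPM. AT5G19890 had 28.6, 57.8 and 26 CPM in uvr8-6 under UV-B, against 13.2, 9.94 and 13.7 CPM in uvr8-6 in white light. In the wild type it had 2.70, 5.17 and 2.63 CPM under UV-B, against 11.0, 9.81 and 11.0 CPM in white light, so the groups were apart in opposite directions. The rise of AT5G19890 in uvr8-6 was not called (edgeR adjusted p = 0.0853). The difference of the responses was 3.04 ± 0.61 on the log2 scale, the largest of the 17 called. AT5G64100 was abundant, at 468, 502 and 462 CPM in uvr8-6 under UV-B, against 291, 357 and 299 CPM in uvr8-6 in white light. AT5G47000 rested on 1 library (10.5 CPM in UV-B replicate 2, against 2.2 and 2.42 CPM in the others). Neither AT5G64100 nor AT5G47000 was called in uvr8-6.

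The 3 extensin-type genes split the same way, and none was called in uvr8-6. EPR1 had 19.8 CPM in uvr8-6 UV-B replicate 2, against 4.02 and 3.06 CPM in replicates 1 and 3, whereas the neighbouring AT4G08400 and AT4G08410 were lowest in replicate 2, at 28.0 and 36.6 CPM, against 42.0 to 73.1 CPM in replicates 1 and 3. CSLE1, a cellulose synthase-like gene, was called in uvr8-6, at 94.9, 129 and 100.1 CPM under UV-B, against 64.6, 76.0 and 70.2 CPM in white light. AT5G55180, a glycosyl hydrolase gene, was called too, at a log2 fold change of 0.78 ± 0.14.

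Among transport genes, CHX17, a cation/proton exchanger, had 38.9, 32.8 and 40.1 CPM in uvr8-6 under UV-B, against 7.50, 13.4 and 9.94 CPM in uvr8-6 in white light. The wild type had 12, 3.38 and 3.8 CPM under UV-B, against 7.75, 13.3 and 9.52 CPM in white light, and the higher wild-type values came from the 2 libraries of high FRO5. MSS1, the hexose carrier also known as STP13, was steady, with 60.8, 59.5 and 61.4 CPM in uvr8-6 under UV-B, against 33.8, 39.4 and 37.7 CPM in uvr8-6 in white light. It was called in uvr8-6. AT3G25610, a P-type ATPase gene, was also called. The remaining carriers were not, among them ZIFL1, UMAMIT8, the amino acid transporter gene AT1G25530 and EIR1, the root auxin efflux carrier PIN2. ABCB15 reached its group mean of 113 CPM through replicate 2 at 204 CPM, with 67.0 and 68.0 CPM in replicates 1 and 3, against 56.0 to 87.2 CPM in uvr8-6 in white light.

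LOG5 stood at 10.2, 9.49 and 11.7 CPM in uvr8-6 under UV-B, against 3.71, 4.49 and 4.19 CPM in uvr8-6 in white light. All other libraries held it at 2.36 to 4.05 CPM. MLP165 was tight within groups, with 19.7, 22.4 and 20.6 CPM in uvr8-6 under UV-B, against 11.2, 12.3 and 14.8 CPM in uvr8-6 in white light. In the wild type it had 7.09, 7.90 and 6.02 CPM under UV-B, against 12.2, 13.1 and 11.3 CPM in white light. It thus stood above its white-light range in uvr8-6 and below it in the wild type. PRN, a pirin gene, and BGLU11, a beta-glucosidase gene, averaged 28.1 ± 5.95 and 30.8 ± 8.63 CPM in uvr8-6 under UV-B, against 13.3 ± 1.95 and 15.7 ± 4.01 CPM in white light (SD, n = 3 each), and both were called. Also called were AT4G22530, a methyltransferase gene with a ratio of 2.2, AT5G51830, a carbohydrate kinase gene with 1.51, and AT5G52810 with 1.50. The call of AT5G52810 ended when any 1 of the 6 uvr8-6 libraries was left out. Those of CYP81D11, AT2G37870, LOG5, GRP3S and AT4G22530 held without each of them, and all other calls ended without some. AT4G22530 overlaps ORP2A on the same strand and AT4G22520 on the opposite strand, and AT5G52810 overlaps AT5G52800 on the same strand.

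In uvr8-6, UV-B against white light, edgeR called none of the defence genes of the set. They include the chitinases HCHIB, CHI (AT2G43570) and CHIA, the pathogenesis-related gene PR4, osmotin OSM34, the phospholipase gene PLA2A, the receptor-like kinase genes IOS1 and LRR XI-23 (known as RLK7) and LOX2, a lipoxygenase of jasmonate synthesis. Chitinase products, from 3 genes, made up 3.12% of the nuclear genes of the set and 0.09% of those tested. Of the product words matched, kinase alone went the other way, at 4.17% of the set and 5.74% of those tested. No test was made of these shares. OSM34 had 60.5, 33.7 and 62.6 CPM in uvr8-6 under UV-B, against 16.3, 41.6 and 21.1 CPM in uvr8-6 in white light. UV-B replicate 2 lay below white-light replicate 2, and in the wild type UV-B replicate 1 and white-light replicate 2 stood out, at 33.3 and 29.2 CPM, each in a library of high FRO5. LOX2 had 15.6, 3.58 and 17.1 CPM in uvr8-6 under UV-B, against 7.76, 5.14 and 4.40 CPM in uvr8-6 in white light. It was the only jasmonate gene of the set, and none of the 17 tested genes in the jasmonate list was called in uvr8-6.

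Abundant genes with a ratio near the threshold were LRR XI-23 (262, 413 and 268 CPM in uvr8-6 under UV-B, against 197, 210 and 195 CPM in uvr8-6 in white light), PPC3, a phosphoenolpyruvate carboxylase gene (238, 446 and 250 CPM, against 222, 160 and 222 CPM), and GSTF2 (182, 525 and 194 CPM, against 228, 161 and 188 CPM). For GSTF2 replicates 1 and 3 lay within the white-light range, and replicate 2 alone lay above it. Its wild-type groups were apart the other way, at 69.1, 108 and 106 CPM under UV-B, against 217, 168 and 173 CPM in white light. GSTF2 overlaps TOC159 on the opposite strand. AT2G39980, an acyltransferase gene, had 108, 73.4 and 115 CPM in uvr8-6 under UV-B, against 39.8, 39.9 and 37.2 CPM in uvr8-6 in white light. AT2G39980, LRR XI-23, PPC3 and GSTF2 were not called in that contrast.

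Transcription factor genes of the set were the NAC genes NAC6 (also known as ORE1, a regulator of leaf senescence), NAC100 and NAC3 (AT3G29035), the MYB genes MYB27 and MYB102, and HB-7, AIL6, LRP1 and AT2G33710. None was called in uvr8-6. MYB27 was called for the difference of the responses, at 1.74 (log2). It had 16.2, 17.0 and 19.1 CPM in uvr8-6 under UV-B, against 7.84, 14.2 and 7.17 CPM in uvr8-6 in white light. Wild-type levels were 5.64, 2.77 and 4.29 CPM under UV-B, against 6.81, 14.0 and 6.25 CPM in white light.

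The genes that follow were not called in uvr8-6. AT2G45220, of the invertase and pectin methylesterase inhibitor family, averaged 67.6 ± 5.01 CPM in uvr8-6 under UV-B, against 37.1 ± 8.29 CPM in white light (SD, n = 3 each). AT4G02110, annotated as a transcription coactivator, averaged 11.2 ± 1.36 CPM under UV-B, against 6.80 ± 0.212 CPM in white light, and AT4G35160, an O-methyltransferase family gene, 41.6 ± 2.90 CPM, against 26.8 ± 5.73 CPM. Sugar metabolism was represented by the galactinol synthase gene GolS2, the sucrose-phosphatase gene SPP1 and the fructan exohydrolase gene cwINV6, with uvr8-6 ratios of 1.71, 1.67 and 1.67. The other beta-glucosidase gene, BGLU19, had a ratio of 2.17 and overlaps AT3G21360 on the opposite strand. The ribosomal RNA gene AT2G01020 had 2.84, 3.27 and 4.06 CPM in uvr8-6 under UV-B, against 1.6, 1.96 and 1.72 CPM in white light, and pif4-101 pif5-1 replicate 1 exceeded all of these at 4.70 CPM.

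The 2 highest ratios of the set rested on 1 library. CRU3 and CRA1 encode cruciferins, the storage proteins that seeds lay down before they dry. CRU3 had 0.423, 19.8 and 0.389 CPM in uvr8-6 under UV-B, against 0.129, 0.269 and 0.294 CPM in uvr8-6 in white light. CRA1 had 1.27, 34.4 and 1.38 CPM, against 0.905, 0.575 and 4.78 CPM. Replicate 2 held nearly all of the reads. A list of 12 matched genes of seed storage proteins, oil bodies and late embryos, of which 7 were tested and none was called, summed to 84.4 CPM in that library, to 13.0 to 13.2 CPM in the other uvr8-6 UV-B libraries and to 2.97 to 22.4 CPM in the other 12. The part of seed or embryo RNA in these ratios was not tested.

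Plastid loci of the set had low counts, and why they entered was not tested. Of 66 tested plastid loci, 15 had a uvr8-6 ratio of 1.5 or more. In uvr8-6 the mean share of plastid reads was 0.035% under UV-B and 0.025% in white light. The 7 in the set had means of 3.11 to 5.71 CPM in uvr8-6 under UV-B. None was called in uvr8-6, and the uvr8-6 groups did not overlap for 4 of them. The same number, 4, were highest of all 15 libraries in wild-type white-light replicate 1, the library rich in organelle reads, which lowers their wild-type ratio. With nuclear genes alone in the column sums the rule gave 97 genes, all of them in the set. Organelle loci were left out of that repeat, so the 7 plastid loci could not enter and their absence shows nothing.

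Members differed in which uvr8-6 UV-B library was highest. In uvr8-6 under UV-B replicate 2 was the highest of 3 for 57 genes, the lowest for 35 and the middle one for 12. Over all tested genes replicate 2 was the highest for 53.4% and the lowest for 28.9%, close to the shares of 54.8% and 33.7% in the set. Replicates 1 and 3 are the libraries of high FRO5. Where replicate 2 was lowest, wild-type UV-B replicate 1 was the highest of its group for 31 of 35 genes (88.6%), against 45.5% of all tested genes with the same place of replicate 2. Where replicate 2 was highest, the median gene stood in that library at 2.36 times its uvr8-6 white-light mean, and at 1.40 and 1.53 times in replicates 1 and 3. The map of all members is split by this place.

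**Figure D3:**
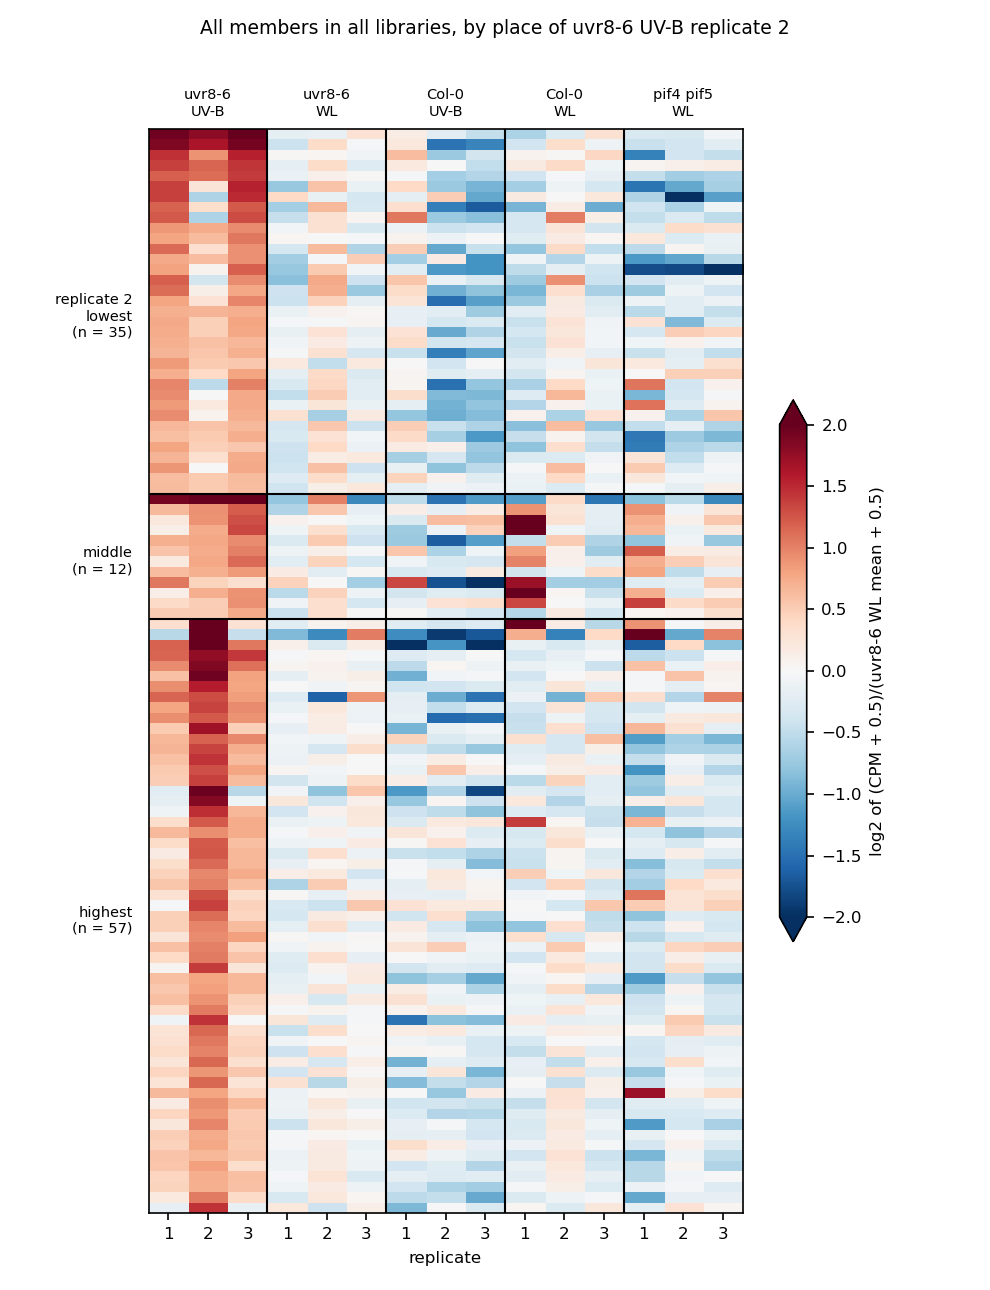
Each row is 1 of the 104 members and each column 1 of the 15 libraries; colour gives log2 of CPM plus 0.5 over the uvr8-6 white-light mean plus 0.5, from blue (lower) to red (higher), cut at -2 and 2. Rows are split by the place of uvr8-6 UV-B replicate 2 (lowest, 35; middle, 12; highest, 57): replicates 1 and 3 are redder in the upper block and replicate 2 in the lower one, and wild-type UV-B replicate 1 is the palest or reddest of its group in the upper block.

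Ratios were therefore also taken within libraries of like FRO5, a split made after seeing the data. Among libraries of high FRO5 (uvr8-6 UV-B replicates 1 and 3, white-light replicate 2) the uvr8-6 ratio was above 1 for 103 of 104 genes and reached 1.5 for 41, with a median of 1.40. Among the others (UV-B replicate 2, white-light replicates 1 and 3) it was above 1 for 100 and reached 1.5 for 91, with a median of 1.97. The median over all tested genes was 0.975 in the first set and 1.04 in the second. Each set holds 1 library in 1 of its groups, and neither gives a test. In both sets the uvr8-6 ratio was 1.5 or more for 35 genes, and 24 of these also kept a wild-type ratio of 1.1 or less in both. CYP81D11 had 2.37 and 3.48, CHX17 2.88 and 3.61, AT2G37870 4.53 and 3.3, GSTF2 1.17 and 2.52, and LOX2 2.98 and 0.620 in the sets of high and low FRO5. A fit with a term for FRO5 above 10 CPM called 28 of the 104 as higher in uvr8-6 under UV-B, against 1.32% of all genes, and 29 for the difference of the responses, against 3.25%. The part of this library difference in the choice of the genes was not tested.

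**Figure D4:**
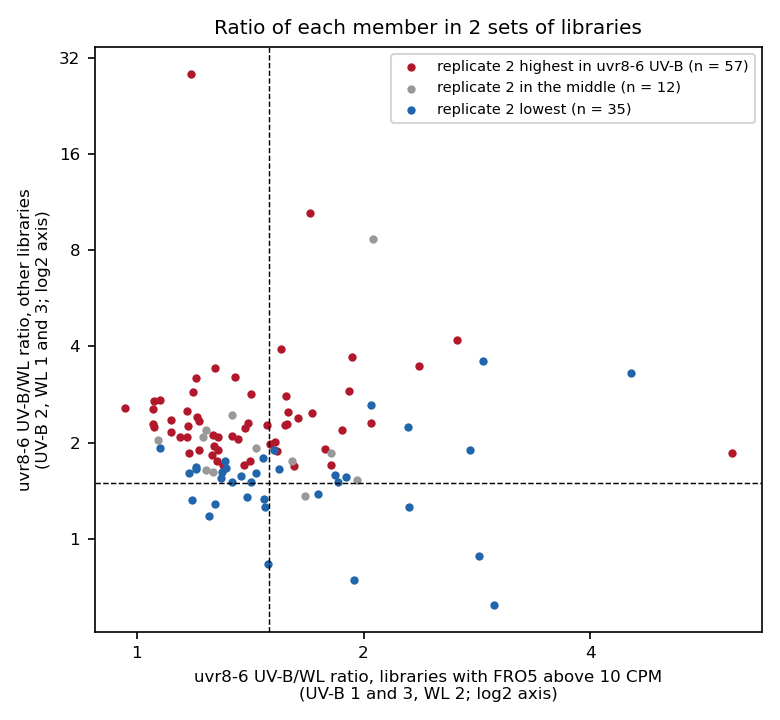
Uvr8-6 UV-B to white-light ratio of each of the 104 members within libraries of FRO5 above 10 CPM (horizontal) and within the others (vertical), log2 axes, coloured by the place of UV-B replicate 2; dashed lines mark 1.5. The upper right field holds the 35 genes that reach 1.5 in both sets, and 4 genes fall under 1 in the vertical direction.

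The rule was repeated without each of its 12 libraries in turn. Leaving out uvr8-6 UV-B replicate 2 kept 62 of the 104 genes, and leaving out uvr8-6 white-light replicate 1 kept 66. Without uvr8-6 white-light replicate 2 the rule gave 210 genes, 95 of them in the set. In all 12 repeats 21 genes were kept, among them CYP81D11, CHX17, LOG5, GRP3S, GSTF7, MLP165, MSS1, PRN, BGLU11, MYB27, AT5G19890 and AT4G22530. Of these 21, 15 also met both ratios in both sets of libraries. AT2G37870 was not among the 21: it left the set without wild-type white-light replicate 3, and also in CPM scaled by TMM. CYP81D11, though kept in all 12 repeats, left the set in CPM scaled by TMM as well. So did GSTU25, AT1G60730, AT5G52810 and AT5G55180, which edgeR called in uvr8-6. CPM scaled by TMM, which allows for the makeup of a library, kept 68 of the 104 and gave 70 genes in all.

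**Figure D5:**
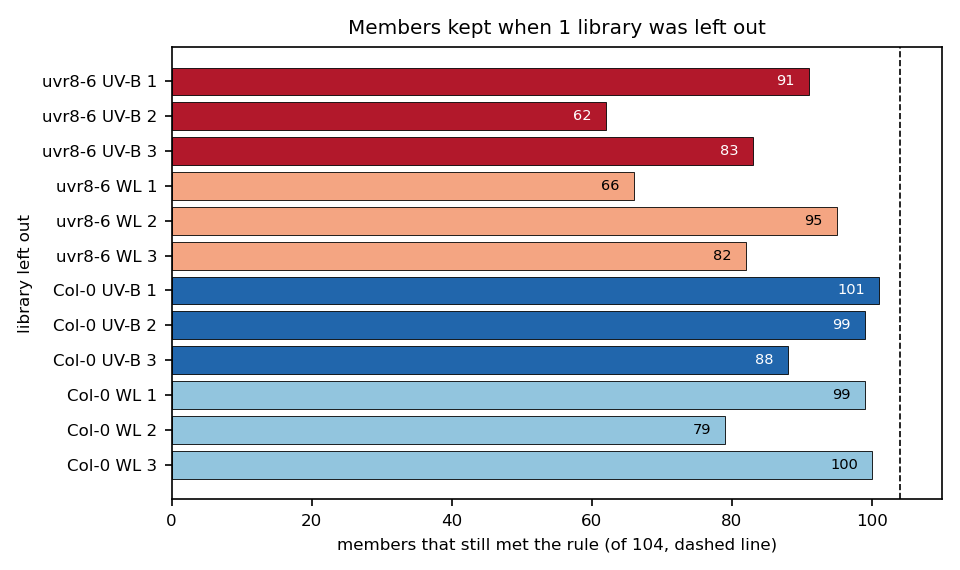
Number of the 104 members that still met the rule (horizontal, from 0) when the library named on the left was left out. The shortest bars are uvr8-6 UV-B replicate 2 with 62 and uvr8-6 white-light replicate 1 with 66, and every other bar is 79 or longer.

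Libraries of pif4-101 pif5-1 took no part in the choice of the genes, although the white-light libraries they are compared with did. Among the 104, edgeR called none as higher in pif4-101 pif5-1 than in the wild type in white light (5 at an unadjusted p under 0.05, 0 by DESeq2 and 0 by limma-voom), against 1.72% of all genes. It called 3 as lower (2.88%), against 3.54% of all genes, a share near the background. The median log2 fold change was -0.06, against 0.00 over all genes. Mean CPM in pif4-101 pif5-1 lay within 1.5-fold of that in the wild type for 85 of the 104, against 92.9% of all genes.

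The 3 genes were MLP165, NAC6 and AT4G19970. MLP165 had 5.56, 9.17 and 7.20 CPM in pif4-101 pif5-1, against 12.2, 13.1 and 11.3 CPM in the wild type in white light, a log2 fold change of -0.67 ± 0.15 (edgeR adjusted p = 0.0188). NAC6 had 2.73, 3.87 and 3.223 CPM in pif4-101 pif5-1, against 8.24, 5.03 and 10.2 CPM in the wild type, a log2 fold change of -1.21 ± 0.26 (edgeR adjusted p = 0.017). AT4G19970, a sugar transferase family gene of low level, had 0.385, 0.368 and 0.263 CPM, against 1.63, 2.18 and 1.79 CPM, a log2 fold change of -2.39 ± 0.51 (edgeR adjusted p = 0.017), and is named here after its values were seen. All 3 were lower in 3 of 3 libraries. None of these calls held without pif4-101 pif5-1 replicate 1, without its replicate 3 or without wild-type white-light replicate 1, and with the 2 groups fitted alone the call of AT4G19970 alone held.

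Against uvr8-6 in white light, edgeR called none as higher in pif4-101 pif5-1 (4 at an unadjusted p under 0.05, 1 by DESeq2 and 0 by limma-voom), against 5.15% of all genes, and 4 as lower, against 6.4%. AT4G19970 was at -2.77 (edgeR adjusted p = 0.00338) and MLP165 at -0.67 (edgeR adjusted p = 0.0102) on the log2 scale. NAC6 was at -0.86 (edgeR adjusted p = 0.0463, and 0.0542 with the replicate number as a block) and AT5G55180 at -0.46 (edgeR adjusted p = 0.0496). The count was 1 without uvr8-6 white-light replicate 3 and 2 without uvr8-6 UV-B replicate 1 or 3, uvr8-6 white-light replicate 1, wild-type white-light replicate 1 or pif4-101 pif5-1 replicate 3.

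In white light uvr8-6 and the wild type were close. None of the 104 was called in either direction by edgeR, with 0 higher and 3 lower at an unadjusted p under 0.05 and at most 0.0144% of all genes called, and none was called lower by DESeq2 or limma-voom. Means lay within 1.5-fold of each other for 99 of the 104. The share over all genes was not counted, and both groups took part in the choice of the genes.

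Some further features of the set are given as a description. The median exon length was 1585 bases (quartiles 1371 and 2027), against 1734 (quartiles 1251 and 2312) over tested nuclear genes, so the ranges overlapped widely. The median number of exons was 3, against 4. The median level over the 15 libraries was 8.96 CPM, against 15.2 CPM, but the rule used 12 of these libraries and a limit of 3 CPM. Genes with 2 exons made up 24.0% of the set and 15% of all. Pairs with at most 2 genes between them were AT1G60730 with AT1G60750 and AT4G08400 with AT4G08410. Of the 96 nuclear genes 12 overlap another gene of the table, and the share of such genes among all tested was not counted. Of 17 tested genes in a list of the UV-B pathway downstream of UVR8, none was in the set, 0 were called in uvr8-6 and 17 rose in the wild type. In uvr8-6, 11 of the 17 had an unadjusted edgeR p under 0.05, counted in either direction. The share over all genes at that unadjusted level was not counted. The list's median log2 fold change was 0.41 in uvr8-6 and 3.08 in the wild type, with -0.01 over all genes in both. Suberin genes, of which 6 of 17 rose in uvr8-6 and 8 of 17 in the wild type, were not in the set either. Of all genes tested, 0.85% were called higher in uvr8-6 and 16.1% in the wild type.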

How the data were processed

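Gene counts of 15 RNA-seq libraries, deposited by the authors as raw reads per gene, were analysed. The genome TAIR10 and, without roles, HTSeq 0.9.1, edgeR 3.22.3, STAR 2.5.3a and FastQC 0.11.5 are named per the submitters' processing notes. Stranded mRNA libraries started with 400 ng of RNA and were read as 100 bp single ends, per the labels' protocols. How strand was treated in counting is not given in the sources used here. A second deposited table, the same counts scaled by 1 factor per library, was not used here. CPM were counts over the column sum, and the 3 CPM of the rule were read as the mean without the added 0.5.

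The tests used edgeR 4.0.16 in R 4.3.3 (quasi-likelihood, TMM scaling, filterByExpr, all 15 libraries in 1 fit with 10 residual degrees of freedom, Benjamini-Hochberg adjustment over 20833 genes). DESeq2 1.42.0 and limma 3.58.1 (voom), other scalings and filters, a block for the replicate number, fits of the compared groups alone and leaving out each library served as alternatives. The fit was also run on simulated counts, with changes planted in pif4-101 pif5-1 alone and a spread common to all genes, which does not test the uvr8-6 contrast. The members and all lists were chosen with earlier results of these data known. Named by rule were the 10 members with the highest uvr8-6 ratio, the 8 most abundant, up to 6 called in each direction in pif4-101 pif5-1 against the wild type (5 CPM, no overlap), members of the lists, genes beside each threshold and those with a printed promoter. All other members are named after their values were seen, and 1 member is not reported here. Gene names came from a RefSeq table of TAIR10.1, which matched 32835 of 33602 genes and 97 of the 104. Promoters came from the same assembly.

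Replicate numbers were taken to pair groups where deviations of all 3 same-numbered pairs correlated above 0.1. This held for pif4-101 pif5-1 with uvr8-6 in white light (0.157, 0.187 and 0.142) and for uvr8-6 with the wild type in white light (0.333, 0.599 and 0.386). Replicates came from separate plates, per the series' design text. Library totals of 19.3 to 30.4 M reads limit the precision of genes of few CPM.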

Additional observations from a re-analysis of the deposited data

Results flagged for a closer look

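The UV-B response differed between uvr8-6 and the wild type, by edgeR's test of the difference itself, for 17 genes of the set. The libraries are those that chose the genes, so these differences are a description. On the log2 scale, uvr8-6 minus wild type, the difference was 3.04 for AT5G19890, 2.36 for CHX17, 1.89 for AT2G37870, 1.74 for MYB27 and 1.52 for GSTF7. It was 1.42 for LOG5, 1.41 for GRP3S, 1.39 for AT4G22530, 1.35 for MLP165, 1.28 for PGDH and 1.27 for CYP81D11. It was 1.22 for BGLU11, 1.09 for PRN, 1.0 for AT5G52810, 0.85 for CSLE1, 0.82 for MSS1 and 0.61 for AT5G51830.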

How the results depend on the processing

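The rule gave 104 genes, 19 with a ratio of 2 in uvr8-6, 61 with a minimum of 10 CPM, 166 with group medians, and 76 to 210 with 1 library left out (fewest without uvr8-6 white-light replicate 1, most without its replicate 2). Genes called higher in uvr8-6 under UV-B numbered 18, and 35 by DESeq2, 29 with the replicate block, 28 with the FRO5 term and 5 to 23 with 1 library left out. In the wild type 3 were called lower, and 6 under upper quartile scaling (median of all genes -0.11), 5 by DESeq2, 5 with the replicate block, 8 with the FRO5 term and 1 to 7 with 1 library left out. The difference of the responses was called for 17, for 29 with the FRO5 term and for 14 to 22 with 1 library left out. Against the wild type, genes higher in pif4-101 pif5-1 numbered 0, 4 with the FRO5 term and 0 to 1 with 1 library left out, and genes lower numbered 3, 1 with the compared groups alone and 0 to 5 with 1 library left out. Against uvr8-6, genes higher numbered 0, 1 by DESeq2, 2 with the FRO5 term and 0 to 1 with 1 library left out, and genes lower numbered 4 and 1 to 6. The FRO5 term was chosen after seeing the data. Without uvr8-6 UV-B replicate 2 the log2 fold change in uvr8-6 reversed to -0.342 for EPR1, -0.102 for ABCB15, -0.57 for CRA1 and -0.107 for AT5G47000, while the highest values with 1 library left out were 1.306, 0.819, 3.992 and 1.276. The cause of these changes was not tested. Same-numbered uvr8-6 libraries did not deviate together under UV-B and in white light (correlations 0.011, -0.278 and -0.22), nor did all wild-type ones (-0.324, -0.17 and 0.134), so the block there rests on numbers alone. In pif4-101 pif5-1 against uvr8-6 the pairing changed the call of NAC6 and left the counts at 4 and 0.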
